A study of Mus musculus with 8 samples.

Results

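The genes described here flank Kmt2a on mouse chromosome 9. Kmt2a encodes Mll1, the protein whose loss separates the knockouts from the controls, and spans chr9:44803355-44881296 on the minus strand (mm10). A gene was a member if its lowest start lay within 10 Mb of either end of Kmt2a and if it reached at least 10 raw counts in at least 4 of the 8 libraries. Kmt2a, Hspa8, Hyou1, Rps25, Sc5d, Pou2f3, St3gal4 and Chek1 met both criteria and were left out by name, as was Pkm, which lay outside the window. Of 53801 genes in the count table, 2857 lay on chromosome 9 and 630 in the window. Of these, 164 had 0 counts in all libraries, 483 missed the count criterion and 139 were members. The members comprised 65 genes on the proximal side, toward lower coordinates, and 74 on the distal side. Of the 139, 114 were protein coding. The members were thus chosen by position and by their counts in these libraries.

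Paneth cells were sorted as EpCAM+ Cd24+ cells from the small intestine of 4 β-catGOF; Mll1+/- mice (controls) and 4 β-catGOF; Mll1-/- mice (knockouts), 10 d after tamoxifen (1 mg on 3 d). All 8 mice thus carried stabilised β-catenin and at least 1 floxed copy of Mll1, recombined by a tamoxifen-inducible Cre under the Lgr5 promoter, and no wild-type mouse was compared. One animal number occurs in the titles of both control 4 and knockout 4. The study describes recombination by this Cre in a mosaic of crypts, and its legends name non-recombined crypts beside mutant ones in β-catGOF; Mll1-/- mice as well. It also reports, from immunostaining at the day of the sort, that mutant crypts had lost Mll1 down to the Paneth cells. No marker of recombination is named for the sort, the cells of a sample were pooled, and the methods paragraph on the sort names floxed littermates without β-catGOF. The strain in which the floxed allele was made is not given in the sources used here. Controls carried the floxed chromosome in 1 copy and knockouts in both, so a difference that comes from loss of Mll1 and one that comes from alleles inherited with the floxed locus cannot be told apart for any member.

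Mll1 methylates lysine 4 of histone H3 and binds unmethylated CpG dinucleotides through its CXXC domain, so that promoters rich in CpG are its best known sites. Genes close to a targeted locus are linked to it and travel with it through crosses, which is why flanking genes are commonly inspected in knockout mice. The interval around Kmt2a holds the genes of the T cell receptor CD3 chains, a cluster of apolipoprotein genes, many immunoglobulin-superfamily adhesion proteins, and common housekeeping genes of the ER, Golgi apparatus and mitochondria.

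Library totals lay between 13037832 and 14380240 counts, and the members took between 0.0781% and 0.154% of them. Knockout 3 stood apart, with 19662 genes detected against 22623 to 26074 in the others, a normalization factor of 0.632, 8 members at 0 counts and 108 members at 10 counts or more against 125 to 133 in the others. Normalized for library composition, the summed level of the members was even, between 1107 and 1240 CPM (counts scaled to a common library size). All 8 Paneth cell markers were detected, with a summed level of 266101 to 524532 CPM in controls and 242459 to 749704 CPM in knockouts, and none of them differed by the cutoffs below. Markers of other crypt cells were summed in the same way. The 6 enteroendocrine markers summed to 200 to 585 CPM in controls and 45.1 to 184 CPM in knockouts, with no overlap, and Neurod1 among them passed the 10% false discovery rate (log2 fold change -2.27, adjusted p = 0.0629). The 5 tuft cell markers summed to 138 to 376 CPM in controls and 70.7 to 242 CPM in knockouts, and the 4 stem cell markers to 559 to 1239 and 191 to 795 CPM, both with overlap. Most of the stem cell sum was Olfm4 (log2 fold change -1.11), while Ascl2 had -0.82, Lgr5 0.04 and Smoc2 -0.05. The sums of the 6 goblet cell markers overlapped widely, at 1777 to 4278 and 1657 to 4021 CPM, and came mostly from Muc2, Agr2 and Tff3. Single goblet cell markers went different ways. Zg16 (log2 fold change -5.05), Fcgbp (-2.24) and Tff3 (-0.38) were lower in the knockouts, and Clca1 (0.76), Muc2 (0.19) and Agr2 (0.17) were higher. None of these markers passed both cutoffs, and their part in the differences of the members was not tested. In pooled cells, fewer cells of a type and less RNA per cell cannot be told apart. Kmt2a itself had 719, 469, 268 and 284 counts in the controls and 523, 447, 328 and 468 in the knockouts (log2 fold change -0.06, adjusted p = 0.995); this count sums all exons, so it does not show the loss of a single deleted exon.

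Promoter windows, from 250 bases before to 50 after a transcription start, were taken from RefSeq (GRCm38.p6), which had an entry for 84 members. For 14 of these the RefSeq start lay more than 500 bases from the gene start in the annotation of the counts, and the other 70 windows are described here. The median number of CG dinucleotides was 22 in these 70 windows against 7 in all 32851 windows of the same length. The 70 belong to genes that passed the count criterion, with a single window each. The 32851 were limited neither by counts nor to a single window per gene. Whether genes with similar counts elsewhere differ in the same way was not tested, so this is not shown to be a trait of the flank. Of the 70, 40 held 20 or more CG and 10 held 5 or fewer. The 4 windows below show this range. They are those of Jaml, the member with the largest difference between the genotypes, of Spa17 and Npat, whose groups also did not overlap, and of Atp5l, the nearest member on the distal side, whose groups did. They are printed 5′ to 3′ on the strand of the gene, with each CG in capitals. Jaml is at chr9:45078933-45079232 (plus strand), Spa17 at chr9:37613672-37613971 (minus strand), Npat at chr9:53536797-53537096 (plus strand) and Atp5l at chr9:44920693-44920992 (minus strand).
Jaml: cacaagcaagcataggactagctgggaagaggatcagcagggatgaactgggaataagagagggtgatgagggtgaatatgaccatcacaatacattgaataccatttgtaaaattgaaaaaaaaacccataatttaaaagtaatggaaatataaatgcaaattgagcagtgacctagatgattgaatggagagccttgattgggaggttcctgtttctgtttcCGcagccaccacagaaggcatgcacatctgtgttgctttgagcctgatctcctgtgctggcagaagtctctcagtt
Spa17: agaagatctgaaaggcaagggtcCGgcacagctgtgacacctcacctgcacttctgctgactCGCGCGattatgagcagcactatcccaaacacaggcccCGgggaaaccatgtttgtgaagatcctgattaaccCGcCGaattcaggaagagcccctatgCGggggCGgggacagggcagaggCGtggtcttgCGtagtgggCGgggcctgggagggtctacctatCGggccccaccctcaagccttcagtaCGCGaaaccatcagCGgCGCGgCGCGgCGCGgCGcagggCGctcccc
Npat: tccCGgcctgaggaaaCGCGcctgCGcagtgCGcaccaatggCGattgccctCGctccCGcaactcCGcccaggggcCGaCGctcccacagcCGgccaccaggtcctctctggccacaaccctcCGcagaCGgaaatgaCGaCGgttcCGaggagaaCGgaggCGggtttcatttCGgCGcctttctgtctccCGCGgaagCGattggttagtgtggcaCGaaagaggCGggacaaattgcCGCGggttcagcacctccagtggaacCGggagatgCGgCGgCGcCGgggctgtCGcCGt
Atp5l: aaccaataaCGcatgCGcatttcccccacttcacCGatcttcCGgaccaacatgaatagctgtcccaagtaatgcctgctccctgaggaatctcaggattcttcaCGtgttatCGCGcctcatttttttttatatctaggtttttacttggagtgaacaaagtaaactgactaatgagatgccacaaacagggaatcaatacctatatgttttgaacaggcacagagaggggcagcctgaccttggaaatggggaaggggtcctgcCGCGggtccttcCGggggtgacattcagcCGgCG
The Jaml window held 1 CG, with a GC content of 42.3%, and 14.1% of all windows held as few. The Spa17 window held 24 CG (GC content 63.3%), the Npat window 35 (66.7%) and the Atp5l window 12 (49.0%). The letters CTTTGA, the core of the recognition motif of the β-catenin partners Tcf and Lef, were searched on both strands and occurred in 9 of the 70 member windows (12.9%), against 16.0% of all windows. The same limit holds for this comparison. The Jaml window held 1 match and the other 3 held 0. The median log2 fold change was 0.19 for the 10 members with windows poor in CG and 0.00 for the 40 with windows rich in CG. Cadm1, described below, has no entry.

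Of the 139 members, 135 passed the filter on low counts and were compared between the genotypes with edgeR's quasi-likelihood test, with p-values adjusted over all 13439 genes tested by the method of Benjamini and Hochberg. The pseudogenes Gm6885, Gm9830 and Gm8959 and the noncoding gene Gm48604 were not tested. Calls required both an adjusted p no larger than 0.05 and a fitted log2 fold change (knockouts over controls) of 0.5 or more in either direction. Called were 2 of the 135 members (1.48%), where 0.186% of all genes tested were called. Jaml was lower in the knockouts, where 0.0298% of all genes were called lower, and Cadm1 was higher, where 0.156% were called higher. A false discovery rate of 10% called the same 2 members, and 0.283% of all genes. These background shares depended on the libraries included, the filter, the covariate and the tool. Without knockout 3, 1.08% of all genes were called (1.58% at the 10% false discovery rate), against the same 2 of 139 tested members (3 at the 10% rate). DESeq2 called 1.03% of all genes and 3 of 135 members, and limma-voom 0.707% and 2 of 135 members. With no filter on low counts, 0.783% of all genes and 3 of 139 members were called. With the level of Y-linked genes as a covariate, 0.0744% of all genes and 1 of 135 members were called. Leaving out any single library other than knockout 3 gave 0.0709% to 0.152% of all genes and 1 to 2 members. The share of members with an unadjusted p under 0.05 was 11.1% (15 members, 8 higher and 7 lower), against 6.88% of all genes and 6.37% of the 628 genes tested on chromosome 9 outside the window. Groups did not overlap for 10 members (7.41%), against 4.52% of all genes and 4.62% of the rest of chromosome 9. Of these, 6 members were higher in the knockouts (2.59% of all genes) and 4 were lower (1.93% of all genes). The counts of members are small, and no test of these shares was made.

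**Figure D1:**
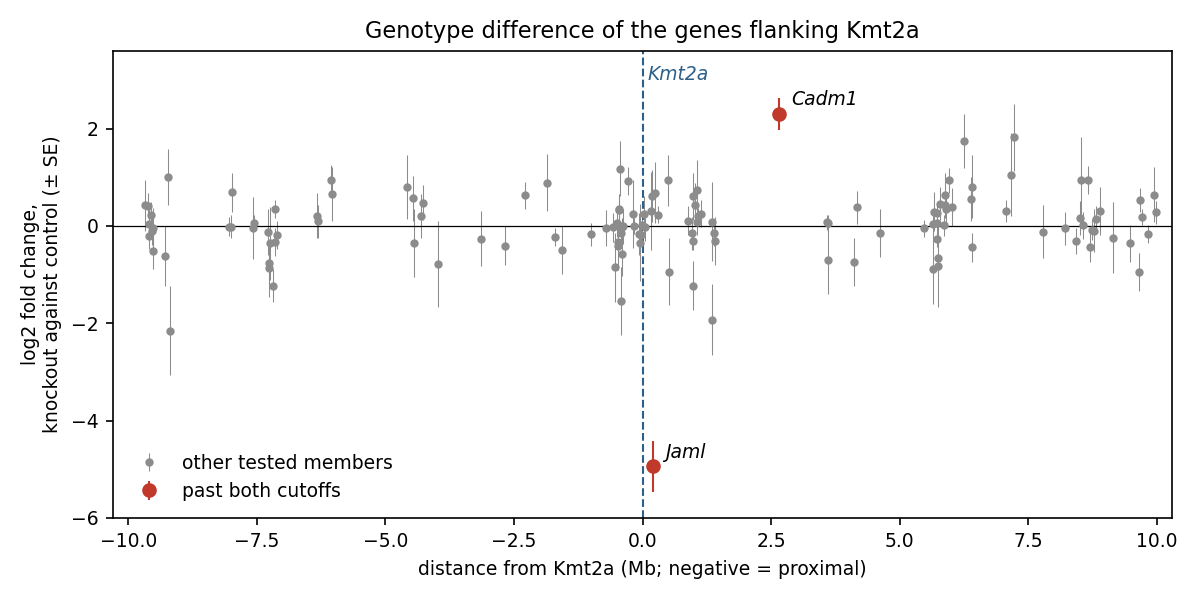
Log2 fold change (knockouts over controls, y axis) of the 135 tested members by position relative to Kmt2a (x axis, Mb; 0 is Kmt2a), with bars of 1 SE and the 2 called members in red. Jaml, 0.198 Mb away, sits at -4.94 and Cadm1, 2.65 Mb away, at 2.30, while the other members lie around 0 on both sides.

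Jaml encodes the junctional adhesion molecule-like protein, an immunoglobulin-superfamily receptor best known on leukocytes, where it binds an epithelial partner at cell junctions. The gene (ENSMUSG00000048534) spans chr9:45079183-45108534 on the plus strand, 0.198 Mb from Kmt2a. Controls 1 to 4 had 253, 132, 83 and 142 counts, and knockouts 1 to 4 had 8, 4, 0 and 10. The counts were moderate in each control and near 0 in each knockout, with no overlap. Normalized levels were 15.9, 10.5, 7.47 and 11.2 CPM in the controls (11.3 ± 3.49, SD, n = 4) and 0.477, 0.230, 0 and 0.608 CPM in the knockouts (0.329 ± 0.269, SD, n = 4). Jaml fell by 4.94 on the log2 scale (SE 0.52, adjusted p = 0.0015). The exact two-sided permutation test on this gene alone gave p = 0.0286, the smallest value that 4 against 4 libraries allow. Every gene whose groups do not overlap has this value, and 4.52% of all genes tested did not overlap. Since Jaml passed the count criterion of 4 libraries through the controls (only knockout 4 reached 10 counts), a gene of this pattern could enter the members only with a difference in this direction.

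Jaml shares 12.8% of its exon bases with the antisense gene Gm10684, which had at most 2 counts in any library. Between Kmt2a and Jaml lie the CD3 genes of the T cell receptor, which were not members. Cd3g had 1 to 10 counts, Cd3e at most 1 and Cd3d 0 in all libraries. Of 15 markers of T cells and intraepithelial lymphocytes, 1 was high enough to be tested and 2, Xcl1 and Trbc2, were at 0 in all libraries. Their summed level was 4.35 to 13.5 CPM in controls and 1.89 to 14.4 CPM in knockouts, so the ranges overlapped, and none was called. Ptprc encodes CD45, which was stained together with EpCAM and Cd24 before the sort, and had 37 to 201 counts in controls and 11 to 185 in knockouts. The 10 myeloid markers summed to 3.10 to 6.98 CPM in controls and 1.89 to 5.36 CPM in knockouts. The part of these markers in the level of Jaml was not tested.

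Cadm1 encodes cell adhesion molecule 1, an immunoglobulin-superfamily protein that joins neighbouring cells by binding itself or related proteins. The gene (ENSMUSG00000032076) spans chr9:47530173-47857637 on the plus strand, 2.65 Mb distal of Kmt2a, and shares no exon bases with another gene. Controls 1 to 4 had 41, 33, 34 and 23 counts, and knockouts 1 to 4 had 294, 263, 61 and 162. The lowest knockout, knockout 3, stood above the highest control. In CPM, the controls had 2.58, 2.63, 3.06 and 1.82 (2.52 ± 0.515, SD, n = 4) and the knockouts 17.5, 15.1, 7.19 and 9.86 (12.4 ± 4.74, SD, n = 4). Cadm1 rose by 2.30 on the log2 scale (SE 0.33, adjusted p = 0.0178, exact permutation p = 0.0286). This call was lost when any single control, knockout 1 or knockout 2 was left out, with adjusted p between 0.0523 and 0.103. It was also lost, with an adjusted p of 0.0759, when the level of Y-linked genes was added to the model. Jaml kept its call in these settings. With 10 counts required in every library, Cadm1 was called (adjusted p = 0.0112) and Jaml could not be tested. The log2 fold change stayed between 2.06 and 2.53 throughout.

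The libraries carry 2 runs of label numbers, each with 2 controls and 2 knockouts. Neither gene overlapped between the groups over all 8 libraries, so separation within each run had to follow and adds no support. The log2 ratio of the group means (with 0.5 CPM added) was -4.01 and -3.62 for Jaml and 2.44 and 1.62 for Cadm1 in the first and second run. Jaml and Cadm1 thus moved in opposite directions, each in 4 of 4 knockouts relative to every control. Among the genes left out by name, Hspa8, a constitutive chaperone gene 3.99 Mb proximal of Kmt2a, was the only one called (log2 fold change -1.56, adjusted p = 0.0333).

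**Figure D2:**
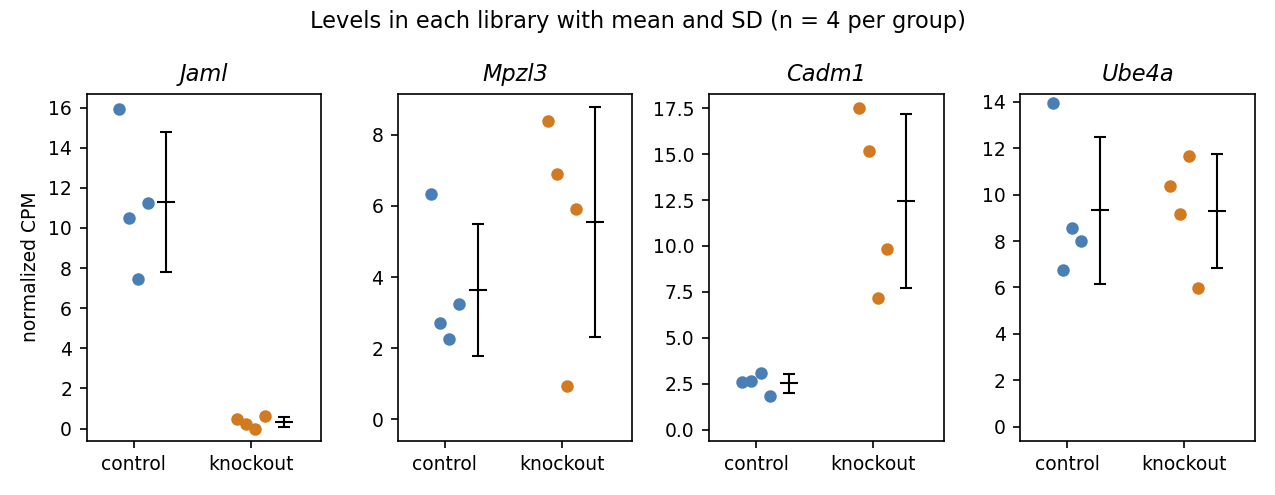
Normalized level (CPM, y axis) of Jaml, Mpzl3, Cadm1 and Ube4a in each of the 4 controls and 4 knockouts; points are libraries, and bars give the mean and SD. The groups are apart for Jaml (7.47 to 15.9 against 0 to 0.608 CPM) and Cadm1 (1.82 to 3.06 against 7.19 to 17.5 CPM), and overlap for Mpzl3 and Ube4a.

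The genes closest to Kmt2a showed no called difference other than Jaml. On the proximal side, Ift46, a component of the intraflagellar transport machinery that lies 0.00991 Mb away, had 116 to 143 counts in controls and 76 to 181 in knockouts (log2 fold change 0.01, SE 0.19). Arcn1, which encodes the δ subunit of the coatomer of Golgi vesicles, had 666 to 975 counts in controls and 549 to 1079 in knockouts (-0.18, SE 0.18). Ddx6, an RNA helicase of P-bodies, had 35.2 ± 4.19 CPM in controls and 35.2 ± 4.96 CPM in knockouts (SD, n = 4; 0.00 in size, SE 0.17). Their standard errors were among the smaller ones. The remaining neighbours were sparse. Phldb1 had 26 to 52 counts in controls and 19 to 44 in knockouts (-0.16, SE 0.43), and the unconfirmed transcript Gm48562 had 6 to 12 and 1 to 22 (-0.35, SE 0.79).

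On the distal side, Atp5l, a subunit of mitochondrial ATP synthase 0.0313 Mb from Kmt2a, had 33 to 80 counts in controls and 21 to 138 in knockouts (0.24, SE 0.38). Ube4a, a ubiquitin chain assembly factor, had 85 to 222 and 98 to 174 counts (-0.01, SE 0.29). Neither differed beyond the spread between libraries. Mpzl2 and Mpzl3 encode adhesion proteins related to myelin protein zero and are the genes directly before Jaml on the plus strand. Mpzl2 had 1 to 39 counts in controls and 1 to 43 in knockouts (0.31, SE 0.81, with 30.7% of its exon bases shared with Gm48840). Mpzl3 had 101, 34, 25 and 41 counts in controls and 141, 120, 8 and 97 in knockouts (0.61, SE 0.54, adjusted p = 0.917). In both, the lowest library of the knockouts was knockout 3 and the groups overlapped. Scn2b, a sodium channel β subunit, lay 0.236 Mb from Kmt2a with 15 to 75 counts in controls and 7 to 200 in knockouts (0.69, SE 0.63). The errors of these genes were wide, and none of them was called.

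Medians over both sides lay between -0.02 and 0.09 at each distance from Kmt2a. Within 1 Mb on both sides, 36 tested members had a median log2 fold change of -0.02, with 15 above 0 and 21 below. Between 1 and 2.5 Mb the median was 0.09 (13 members), between 2.5 and 5 Mb 0.06 (15 members) and between 5 and 10 Mb 0.04 (71 members). Jaml was the called member of the innermost band and Cadm1 that of the band from 2.5 to 5 Mb, and none was called in the others. Unadjusted p-values under 0.05 were found for 4 of 36, 2 of 13, 1 of 15 and 8 of 71 members from the innermost band outward. By side, the innermost bands gave medians of -0.04 (22 members, proximal) and 0.17 (14 members, distal), and the outermost -0.03 (28 members) and 0.16 (43 members). In the outermost distal band, 27 members were above 0 and 16 below, and in the outermost proximal band 12 were above and 16 below. The median standard error of a single member was 0.37, and no test of the medians was made.

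Over all 135 tested members the median log2 fold change was 0.01, with quartiles of -0.29 and 0.39, against 0.01 with quartiles of -0.23 and 0.26 for all genes. Values above 0 were found for 70 members (51.9%), where 50.9% of all genes were above 0. The median size of the log2 fold change was 0.33 for the members against 0.25 for all genes and for the rest of chromosome 9. Without Jaml and Cadm1 it was still 0.33. Values of 1 or more in either direction were fitted for 12 members (8.89%) and for 6.38% of all genes. Knockout 3 was the lowest of the 8 libraries for 39 tested members and the highest for 36; its part in the spread of the members was not tested.

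**Figure D3:**
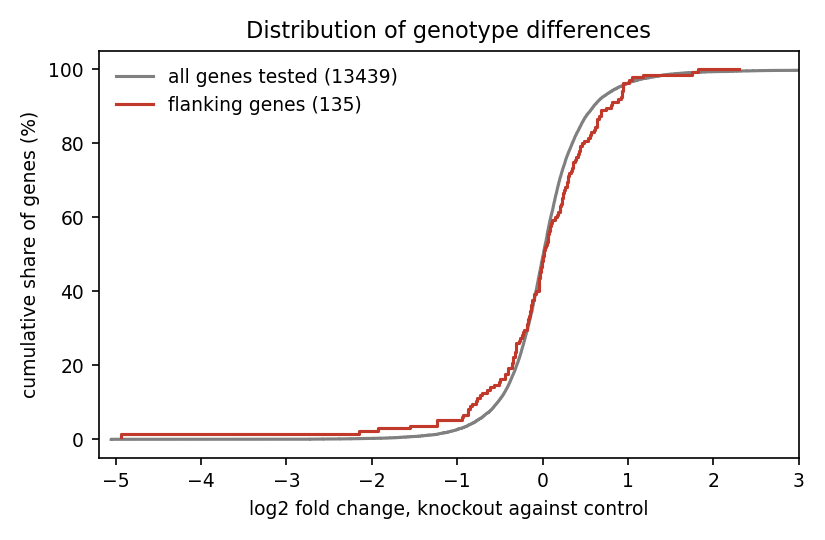
Cumulative share (y axis, %) of genes by log2 fold change (x axis, knockouts over controls) for the 135 tested members (red) and all 13439 genes tested (grey). The curves cross near 0 (median 0.01 for members and all genes), and that of the members is flatter, with quartiles of -0.29 and 0.39 against -0.23 and 0.26; a few genes lie beyond the axis.

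The members whose unadjusted p was under 0.05 but which were not called were a mixed group. Spa17 encodes a sperm surface protein with a domain that binds protein kinase A anchoring proteins, and lies 7.19 Mb proximal of Kmt2a. It had 91, 83, 63 and 72 counts in controls and 47, 51, 27 and 20 in knockouts, so each knockout was below each control (-1.23, SE 0.34, adjusted p = 0.347). Spa17 shares 36.9% of its exon bases with Siae, for which the log2 fold change was -0.33. Npat encodes a coactivator of histone gene transcription at the start of S phase. It had 66, 43, 66 and 91 counts in controls and 148, 138, 94 and 196 in knockouts, with each knockout above each control (0.94, SE 0.29, adjusted p = 0.433). Npat starts 307 bases from Atm, the DNA damage kinase gene on the opposite strand, and Atm had a log2 fold change of 0.01 (SE 0.28). Among the 12 pairs of members that start within 1 kb of each other on opposite strands, no gene was called.

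Ppp2r1b, a scaffold subunit of protein phosphatase 2A, had 98, 55, 86 and 113 counts in controls and 185, 251, 101 and 242 in knockouts (0.94, SE 0.26, adjusted p = 0.347). Knockout 3 lay within the raw counts of the controls, but after normalization all knockouts were above all controls. Its exons overlap those of Sik2 by 22.2%. The predicted gene Gm32742 had 19, 36, 6 and 5 counts in controls and 89, 64, 41 and 52 in knockouts (1.75, SE 0.55, adjusted p = 0.468). Zc3h12c, of the family of Regnase ribonucleases, had 7, 17, 17 and 1 counts in controls and 55, 68, 9 and 58 in knockouts (1.82, SE 0.69, adjusted p = 0.595). Gm32742 separated the genotypes in all libraries, and Zc3h12c did not. Pate4, a small secreted protein gene of the reproductive tract, had 62, 14, 30 and 16 counts in controls and 20, 12, 0 and 0 in knockouts (-2.15, SE 0.92, adjusted p = 0.675). Sh2d7, which encodes an SH2 domain protein, had 49 to 138 counts in controls and 24 to 98 in knockouts (-0.94, SE 0.39, adjusted p = 0.668). The unconfirmed transcripts 9430081H08Rik (-1.55, SE 0.70) and Gm49338 (-1.23, SE 0.50, with 45.7% of its bases in Bace1) had at most 19 and 34 counts in a library. Like Jaml, 9430081H08Rik reached 10 counts in all 4 controls and in 1 knockout. Of the 10 members whose groups did not overlap, Jaml, Spa17, Arhgef12 and 9430081H08Rik were lower in the knockouts, and Cadm1, Npat, Ppp2r1b, Gm32742, Bcl9l and Tbcel were higher.

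By role, 17 genes of the window belonged to a list of immunoglobulin-superfamily adhesion and guidance proteins, and 9 were members. Both called members were on this list, which was drawn up with earlier results of these data known, so their place on it is a description and not a result about such genes (0.186% of all genes tested were called). The other 7, Mpzl2, Mpzl3, Esam, Vsig2, Nectin1, Ncam1 and Cdon, had values between -0.87 and 0.61 and the lowest adjusted p among them was 0.859. The list's median was -0.17, with 3 above 0 and 6 below, against 0.01 over all genes. Vsig2, the member of this list with the second highest level per length after Jaml, had 18 to 61 counts in controls and 21 to 29 in knockouts (-0.77, SE 0.48). Of 8 T cell and lymphocyte genes, only Il18 and Tirap were members, with values of 0.29 (SE 0.40) and -0.22 (SE 0.26). Il18 encodes an inflammasome-activated cytokine that epithelial cells make, and Tirap an adaptor of Toll-like receptors.

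Bcl9l and Dixdc1 encode cofactors of the Wnt pathway, through which stabilised β-catenin is known to act. Bcl9l, which links β-catenin to the Pygopus coactivators and lies 0.291 Mb proximal of Kmt2a, had 55, 52, 26 and 52 counts in controls and 100, 90, 67 and 127 in knockouts. All knockouts were above all controls, at 6.69 ± 1.33 against 3.51 ± 0.843 CPM (SD, n = 4; log2 fold change 0.92, SE 0.29, adjusted p = 0.468). Bcl9l shares 8.28% of its exon bases with Gm47205, which had at most 1 count. Dixdc1, a DIX domain protein that acts with Dishevelled, had 39 to 74 counts in controls and 59 to 144 in knockouts (0.46, SE 0.33).

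The apolipoprotein cluster, 1.35 Mb distal of Kmt2a, holds enterocyte and liver genes of lipid transport, and 2 of its 4 genes were members. Apoa1 had 106, 118, 118 and 74 counts in controls and 26, 35, 18 and 469 in knockouts. Knockouts 1 to 3 were below all controls and knockout 4 was far above them (log2 fold change 0.09, SE 0.82). Leaving out single libraries gave values between -2.10 and 0.44, the lowest without knockout 4 (adjusted p = 0.0733). In that setting 0.174% of all genes passed the 10% false discovery rate. It removes the library that went the other way, so the value is given as a description only. Apoc3 had 14, 7, 27 and 20 counts in controls and 11, 5, 0 and 6 in knockouts (-1.93, SE 0.73, adjusted p = 0.595). The 7 enterocyte markers summed to 137 to 349 CPM in controls and 136 to 229 CPM in knockouts. Fabp1 had the highest mean level among them. Alpi, the gene of intestinal alkaline phosphatase, had 9, 17, 8 and 19 counts in controls and 0, 0, 0 and 42 in knockouts, so that, as for Apoa1, knockout 4 was the highest library and the other knockouts were below all controls. Fabp2, a fatty acid binding protein gene, had 617, 397, 471 and 390 counts in controls and 214, 236, 114 and 469 in knockouts (log2 fold change -1.07, adjusted p = 0.279). The part of enterocyte RNA in the levels of Apoa1 and Apoc3 was not tested.

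Genes of the secretory pathway, on which Paneth cells depend for their granules, were the largest group, with 13 members of 15 genes. None was called, 6 were above 0 and 7 below, and the median was -0.02. Srpr, the receptor subunit for the signal recognition particle at the ER, had 34.2 ± 6.91 CPM in controls and 40.2 ± 15.7 CPM in knockouts (SD, n = 4; 0.23, SE 0.26). Stt3a, a catalytic subunit of the oligosaccharyltransferase, had 514 to 773 and 514 to 942 counts (-0.02, SE 0.20). Both genes overlapped between the genotypes. The highest value of the list was that of Vps11, a subunit of the endosomal and vacuolar tethering complexes (1.17, SE 0.57, adjusted p = 0.767), where knockout 3 had 173 counts and the other knockouts 57 to 67.

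Mitochondrial genes counted 10 members of 10, with a median of -0.12, 5 above 0 and 5 below, and none called. Sdhd, the membrane anchor of succinate dehydrogenase, was the most abundant member (66.9 ± 4.70 CPM in controls and 55.2 ± 5.72 CPM in knockouts, SD, n = 4; log2 fold change -0.28, SE 0.15, adjusted p = 0.817). Timm8b, a chaperone of protein import that starts 98 bases from Sdhd on the other strand, had a value of 0.07 (SE 0.21). These genes were measured more tightly than most. Per kb of exon, Sdhd (49.6 CPM per kb) and Timm8b (42.7 CPM per kb) led the members, followed by Gm10177 (38.7), Rpl10-ps3 (28.4) and Gm10080 (19.9), 3 short genes. Of these, Gm10177 and Gm10080 are annotated as processed pseudogenes, and Rpl10-ps3 is annotated as protein coding under a pseudogene's symbol, so all 3 may share reads with near-identical genes. The log2 fold changes were 0.06 for Gm10177, -0.05 for Rpl10-ps3 and -0.14 for Gm10080.

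The 9 DNA damage, replication and segregation genes had a median of 0.33, with 7 above 0, 2 below and none called. Tbrg1, a growth regulator of the p53 pathway, had 202 to 288 counts in controls and 251 to 419 in knockouts (0.35, SE 0.19). H2afx, the histone variant phosphorylated at DNA breaks, had 78 to 99 counts in controls and 50 to 230 in knockouts (0.33, SE 0.29). All 6 ubiquitin ligase and deubiquitinase members had values below 0, but these were small, between -0.73 and -0.01 with a median of -0.06. Usp28, which is also on the list before, gave the lowest (SE 0.49), Rnf214 had -0.31 (SE 0.19) and the cullin Cul5 had -0.08 (SE 0.22). For RNA helicases and RNA processing (9 members of 11), the median was 0.00 in size, and Rexo2 and Rbm7 had 0.07 and 0.06 (SE 0.16 each). The serine proteases Tmprss4 (0.23, SE 0.18) and Pcsk7 (0.44, SE 0.45) were the 2 members of a list of 4. Signalling kinases and adaptors counted 4 members of 6 with a median of 0.04. Among them, Arhgef12, a guanine nucleotide exchange factor for RhoA, had 15.8 ± 0.462 CPM in controls and 13.5 ± 2.01 CPM in knockouts (SD, n = 4; -0.23, SE 0.18), and Sik3 had 0.25 (SE 0.28). Ion channels and their regulators counted 4 members of 7, with a median of 0.79, 3 above 0 and none called; Fxyd6 had 0.93 (SE 0.53). Of 5 genes of the actin and membrane skeleton, only Rdx, which encodes radixin, was a member, with 45, 32, 27 and 1 counts in controls and 116, 67, 1 and 87 in knockouts (1.05, SE 0.85). Outside the immunoglobulin-superfamily list, no list held a called member.

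**Figure D4:**
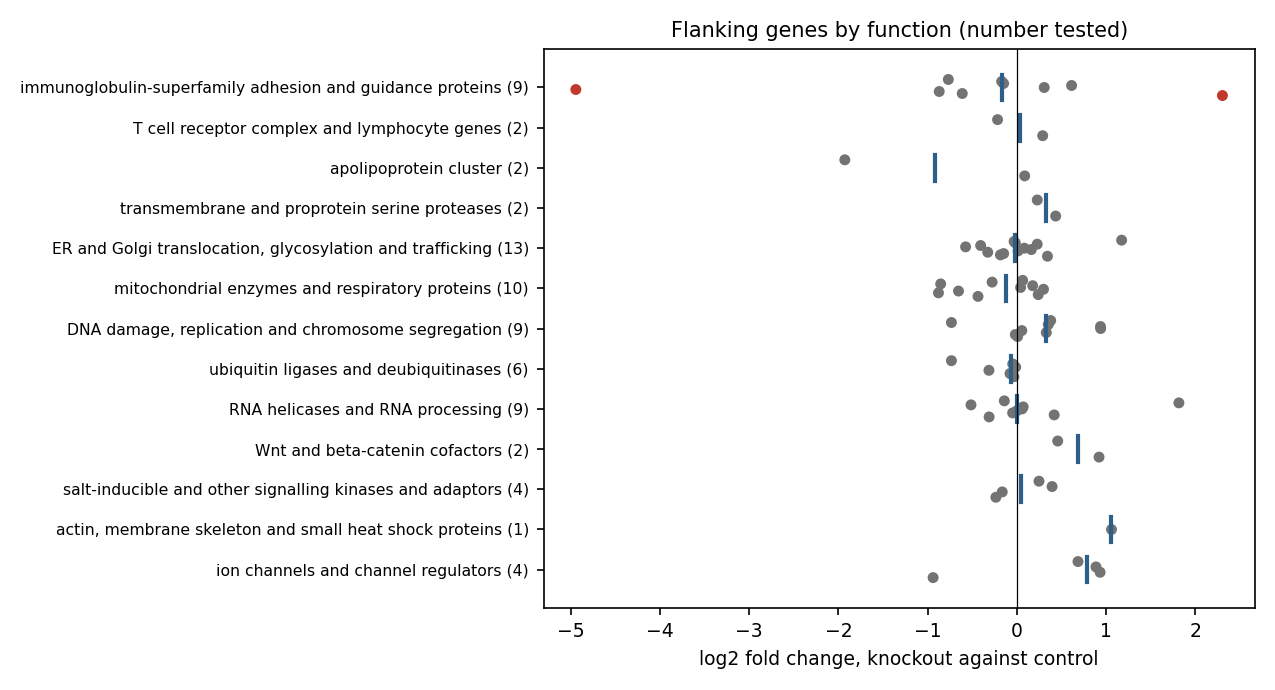
Log2 fold change (x axis, knockouts over controls) of the tested members of 13 lists of genes by function (y axis); each point is a gene, blue bars are list medians, and red points are genes past both cutoffs. The only red points are Jaml and Cadm1 in the immunoglobulin-superfamily list, and the list medians lie between -0.92 (apolipoproteins, 2 members) and 1.05 (Rdx alone).

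The members spanned a wide range of expression. Mean levels ran from 0.524 CPM to the 61.1 CPM of Sdhd, with a median of 5.23 CPM; 15 members were under 1 CPM and 32 were at 10 CPM or more. Sdhd, Arcn1 (61.0 CPM), Stt3a (53.0 CPM), Idh3a (46.0 CPM) and Srpr (37.2 CPM) together made 22.2% of the summed level of all members. The median coefficient of variation of a member was 26.4% among the controls and 39.3% among the knockouts. At the level criterion, 8 members reached 10 counts in exactly 4 libraries, among them Nlrx1 (0 to 27 counts) and Apoc3, and 10 genes missed it with 3 libraries, among them Ccdc15 (0 to 28 counts) and Dscaml1 (0 to 30 counts). At the ends of the window, the outermost members were 4930581F22Rik (start 35116728) and Ireb2 (start 54863789), and the nearest genes outside were Kirrel3 (start 34485894) and Hykk (start 54917283). Of 123 olfactory receptor genes in the window, 3 were members.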

How the data were processed

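RNA of pooled, sorted Paneth cells was sequenced by Smart-seq2, a full-length method without molecular identifiers, from 4 controls and 4 knockouts. Samples were grouped by the Mll1 genotype in their labels, and replicate numbers are names that pair no samples. The authors aligned reads with GSNAP to mm10 and counted unique reads per gene with featureCounts 1.6.3 on Ensembl models, and the deposited values are raw counts per gene and library. The strand setting is not given in the sources used here, so genes that share exon bases (59 members, 26 of them at 10% or more) are uncertain by that share. The 92 spike-in rows were left out. Symbols and spans came from GENCODE M21 (53620 of 53801 identifiers matched).

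From the counts, TMM factors and robust quasi-likelihood fits were computed with edgeR 4.0.16 in R 4.3.3 for the 13439 genes that passed filterByExpr (minimum count 10, minimum total 15). The standard error of a log2 fold change was approximated as the absolute change over the root of the F statistic. CPM are normalized by TMM, and 3 counts correspond to 0.173 to 0.353 CPM. Such limits cover counting error only, and p-values measure the spread between these 8 samples. The common biological coefficient of variation was 0.376. Cutoffs follow the study (adjusted p of 0.05 with a log2 fold change of 0.5, or a 10% false discovery rate). Exact two-sided permutation tests of single genes used mean log2 CPM. Alternatives used DESeq2 1.42.0 and limma 3.58.1, other normalizations, filters and covariates, a narrower window and omission of each library. The level of 4 Y-linked genes as a covariate was added after seeing the data, since both sexes were present in both groups.

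On data simulated from these libraries (13238 genes, 193 changed), edgeR made 106 calls, of which 5.66% were false, and recovered 88% of 4-fold and 12% of 2-fold changes. Of the DESeq2 calls 11.7% were false, and of the limma-voom calls 3.30%. Every simulated gene had the same biological coefficient of variation, 0.376, and no library was made to stand apart. These shares therefore need not hold for the real libraries.

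The members and gene lists were chosen with earlier results of these data known. Named genes are all called members, the 5 nearest to Kmt2a on each side, the 12 largest fitted changes with an unadjusted p under 0.05, the 5 highest levels per length, the 2 highest per length of each list, and the edges of the criteria. Arhgef12 and Tbcel as separated genes, Vps11, Usp28, Idh3a and Atm, Siae and Vwa5a, and Esam, Nectin1, Ncam1 and Cdon were named after their values were seen.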

Additional observations from a re-analysis of the deposited data

Results flagged for a closer look

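Within the groups of 4 libraries of the members named here and of Kmt2a, 10 of 118 groups tested held 1 library far from the other 3; chance alone would give about 6. The values below are the gap to the nearest library as a share of the range of the group. Knockout 3 stood apart in 5 of the 10. It was the highest knockout for Srpr (63.6 CPM against 30.9 to 33.5, gap 0.9205), Pcsk7 (15.4 against 4.77 to 5.90, gap 0.8936), Rnf214 (25.2 against 16.6 to 17.2, gap 0.9269), Vsig2 (3.42 against 1.25 to 1.50, gap 0.8863) and Vps11 (20.4 against 3.28 to 4.08, gap 0.9536). Knockout 4 was the highest knockout for Apoa1 (28.5 CPM against 1.55 to 2.12, gap 0.9788) and the lowest for Arhgef12 (10.5 against 14.1 to 14.7, gap 0.8764). Among the controls, control 2 was highest for Spa17 (6.61 CPM against 5.67 to 5.72, gap 0.9465), control 3 for Pcsk7 (9.99 against 3.98 to 4.43, gap 0.9245), and control 4 was lowest for Rdx (0.0792 against 2.43 to 2.83, gap 0.855).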

How the results depend on the processing

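Jaml was called in every alternative that could test it. Its log2 fold change lay between -4.98 and -4.67 (adjusted p at most 0.00706), and between -5.34 and -4.67 (adjusted p at most 0.0130) when single libraries were left out. Requiring 10 counts in every library removed Jaml from the test. The median over the tested members stayed between -0.03 and 0.08. Of 2 members past both cutoffs, 1 was left with that filter (Cadm1), with Y-linked genes as a covariate (Jaml, with Cadm1 at an adjusted p of 0.0759) and within 2 Mb of Kmt2a (Jaml), and 1 to 2 when single libraries were left out. At the 10% false discovery rate, 2 members became 1 with the strict filter or the 2 Mb window, 5 with no filter (adding Gm32742, Vwa5a and Pate4), 4 with DESeq2 (adding Spa17 and Ppp2r1b), 4 with limma-voom (adding Spa17 and Gm32742) and 1 to 3 without single libraries. Over all genes, the number past both cutoffs was 25, and it became 290 with no filter, 13 with the strict filter, 138 with DESeq2, 95 with limma-voom, 10 with the Y-linked covariate, 152 without knockout 3 and 10 to 21 without any other single library. Without a single library, Cadm1 lay between 2.10 and 2.49. DESeq2 called Spa17 past both cutoffs (-1.24, adjusted p = 0.0444) and the fit with no filter called Gm32742 (1.75, adjusted p = 0.0403).

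Signs changed only for values near 0 or with wide errors, none of them called at 0.05. Limma-voom gave 0.032 for Ube4a, 0.052 for Rpl10-ps3, -1.34 for Apoa1, -0.034 for Pcsk7, -0.069 for Srpr and -0.0015 for Rexo2. Upper-quartile normalization gave -0.027 for Ift46, and DESeq2 size factors and its Wald test gave 0.0047 and 0.0032 for Ddx6. The library run as a block gave -0.54 for Apoa1 and 0.014 for Stt3a. Y-linked genes as a covariate gave -0.32 for Apoa1 and 0.042 for Kmt2a. Leaving out single libraries gave -0.036 to 0.059 for Ift46, -1.08 to 0.035 for Gm48562, -0.39 to 0.093 for Phldb1, -0.078 to 0.081 for Ddx6, -0.14 to 0.44 for Atp5l, -0.14 to 0.26 for Ube4a, -0.097 to 0.97 for Mpzl2, -0.076 to 0.20 for Timm8b, -0.14 to 0.016 for Rpl10-ps3, -0.012 to 0.55 for Il18, -2.10 to 0.44 for Apoa1, -0.12 to 0.85 for Pcsk7, -0.083 to 0.34 for Srpr, -0.13 to 0.13 for Stt3a, -0.17 to 0.019 for Cul5, -0.0040 to 0.12 for Rexo2 and -0.20 to 0.15 for Kmt2a. The cause of these changes was not tested.

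The study's methods call the sorted mice littermates, but the labels give no litters and the genotypes share only 1 animal number in them. No analysis paired by litter or animal was therefore possible. With 4 libraries a group, the median standard error was 0.37. In the simulation, which gave every gene the same variation, 12% of 2-fold changes were recovered, so many such changes may be missed here. Members near the count criterion had few reads, and a member at 0 counts is only below the level of 3 counts.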
